A study of Mus musculus with 20 samples.

Results

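Serine and lysosomal proteases and the inhibitors that hold them in check were followed over the prostates of 5 inbred mouse strains. The members were taken by gene symbol: serpins, Kazal, Kunitz and whey acidic protein inhibitors, cystatins, kallikreins, other serine proteases with the urokinase receptor, and cathepsins. The symbols matched 57 array elements of 43 genes, out of 11552 elements in all, and all 57 passed the limit on missing values (at most 3 of 20 arrays). Of these genes 21 belong to inhibitor families (26 elements; not every member of a family inhibits a protease) and 22 for proteases or the urokinase receptor (31 elements).

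Secreted and membrane serine proteases cut proteins outside the cell, and cathepsins do most of their cutting inside lysosomes. Each family has inhibitors of its own: Kazal, Kunitz and whey acidic protein domains block the active site of serine proteases, serpins trap the protease they inhibit in a covalent complex, and cystatins block cysteine cathepsins. The prostate is a gland rich in secreted serine proteases, and inhibitors from the gland and from the seminal vesicle meet them in the seminal fluid.

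The strains were C57BL/6J, 129X1/SvJ, FVB/NJ, BALB/c and DBA/2, all normal and untreated males, 8 to 9 weeks old. Each strain had 4 pools of RNA from 3 mice each, 12 mice for each strain and 60 in all, with equal RNA from the 4 prostate lobes. Each pool was hybridised to 1 array of 2 colours against a reference made of RNA of all strains, 2 pools of each strain in Cy3 and the other 2 in Cy5. BALB/c and DBA/2 (given as BALB/cAnCrl and DBA/2NCrl in the design) came from another vendor than the remaining strains, so strain and vendor cannot be told apart for them, and a pool hides the differences between its 3 mice.

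The values were log2 ratios of the pool over the reference. A ratio says how a gene's level stood in a pool against the common reference, so levels are compared here between strains and never between genes. Each array gave 10998 to 11251 values. Arrays of the same strain correlated at a median of 0.471 with the same dye and 0.187 with opposite dyes. The spread of values (median absolute deviation) was 0.29 to 0.44 on the 129X1/SvJ arrays and 0.16 to 0.29 on the others. Prostate RNA was taken from whole tissue, in which fewer cells of a type and less RNA per cell cannot be told apart. Of the markers of luminal epithelium, 4 of 7 were measured and 0 of the 4 passed the test over the strains. Of the markers of the seminal vesicle, the gland that lies against the prostate, 7 of 8 were measured and 3 differed (Svs2, Svs5 and Pate4). The mean of these 7 markers lay at 0.44 to 1.11 in the 4 BALB/c pools, and at -3.11 to 0.33 in C57BL/6J, -2.82 to 0.10 in 129X1/SvJ, -3.07 to -0.47 in FVB/NJ and -2.76 to -2.22 in DBA/2.

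Whether a gene differed over the strains was asked with the moderated F test of limma on the means of the 5 strains, with a Benjamini-Hochberg adjusted p of at most 0.1 over all 11159 elements tested. Of the 57 elements 13 differed, or 22.8%, beside 11.3% of all elements. By gene, with 1 element for each, 11 of 43 differed, or 25.6%, beside 12.5% of all 5820 named genes tested. The genes that differed were Spink8, Spink5, Spint1, Tfpi, Wfdc2, Cst3, Serpinb6a and Serpinb1a, which are 8 of the 21 genes of inhibitor families, and Plau, Tmprss2 and Ctsh, which are 3 of the 22 protease and receptor genes. Their highest and lowest strain means lay 0.49 to 3.37 apart on the log2 scale (1.41 to 10.3-fold). The median distance was 0.43 over the 57 elements and 0.32 over all elements tested, while the median SD between pools of a strain was 0.25 and 0.22. The shares and medians describe the list and were not tested. Without pool 4 of 129X1/SvJ, 21 of the 57 elements and 15.7% of all elements passed, and with arrays weighted by their precision 24 and 17.3%.

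**Figure D1:**
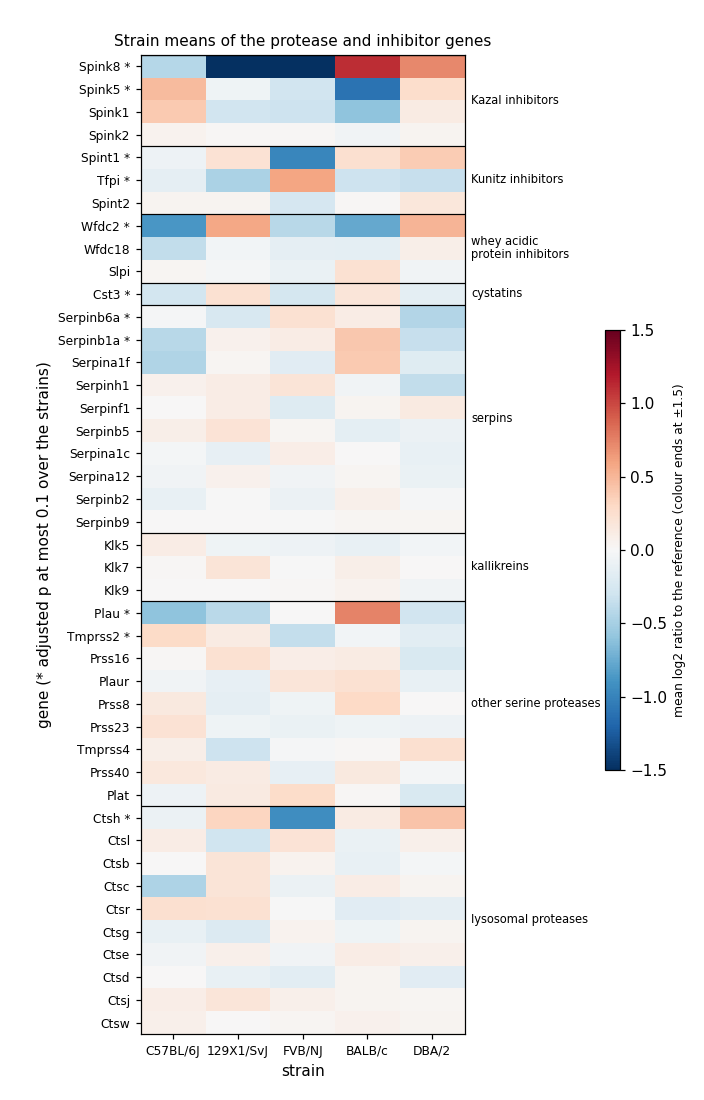
The map gives the mean log2 ratio to the reference of 4 pools for each of the 43 genes (vertical axis, grouped by role, 1 element for each gene) in each of the 5 strains (horizontal axis); red is above the reference, blue below, and an asterisk marks an adjusted p of at most 0.1. The darkest fields are Spink8 in 129X1/SvJ and FVB/NJ, and most serpins, kallikreins and cathepsins are pale in every strain.

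Of the 4 Kazal inhibitor genes 2 differed, Spink8 and Spink5. Spink8, a secreted Kazal inhibitor, was highest in BALB/c and DBA/2 and lowest in FVB/NJ and 129X1/SvJ. The 4 BALB/c pools gave log2 ratios of 1.11, 1.12, 0.94 and 1.25, and the DBA/2 pools 0.70, 0.58, 0.76 and 0.82. The C57BL/6J pools gave -0.26, -0.59, -0.42 and -0.45. In 129X1/SvJ the values were -2.18, -1.91, -2.42 and -1.13, and in FVB/NJ -2.36, -1.95, -2.58 and -2.16. All 4 BALB/c pools stood above the other 16, the DBA/2 and C57BL/6J pools each formed a separate band, and the pools of 129X1/SvJ and FVB/NJ overlapped. BALB/c was 3.37 ± 0.14 (SE) above FVB/NJ, or 10.3-fold (limma, adjusted p = 1.21e-07), and the F test gave an adjusted p of 3.56e-10. Of the 10 pairs of strains 8 differed for Spink8 (limma, adjusted p under 0.05); the other two were 129X1/SvJ against FVB/NJ, 0.35 ± 0.27 apart (adjusted p = 0.805), and BALB/c against DBA/2, 0.39 ± 0.10 apart (adjusted p = 0.0607). The order of the strain means was therefore BALB/c and DBA/2, then C57BL/6J, then 129X1/SvJ and FVB/NJ, and neighbours within these groups did not pass the test. The values hardly moved with the dye (Cy5 minus Cy3 0.02), and BALB/c lay 3.44 above FVB/NJ on the Cy3 arrays and 3.30 on the Cy5 arrays.

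Spink5, the Kazal inhibitor LEKTI that restrains kallikreins in squamous epithelia, went the other way in BALB/c. Its log2 ratios in BALB/c were -1.04, -1.31, -1.0 and -1.09. Those of C57BL/6J were 0.55, 0.61, 0.12 and 0.63, and those of DBA/2 0.46, 0.42, -0.07 and 0.23. The remaining strains were more scattered, with -0.38 to 0.49 in 129X1/SvJ and -0.66 to 0.41 in FVB/NJ. All 4 BALB/c pools lay below the other 16, and the other 4 strains overlapped each other. C57BL/6J was 1.59 ± 0.14 above BALB/c, or 3.00-fold (limma, adjusted p = 7.61e-05; F test, adjusted p = 3.03e-04). DBA/2 and 129X1/SvJ were also above BALB/c (adjusted p = 1.15e-04 and 0.0448), and FVB/NJ was 0.83 ± 0.21 above it (adjusted p = 0.0714). Without the BALB/c arrays Spink5 did not pass the F test over the other 4 strains (limma, adjusted p = 0.181), while Spink8 did (adjusted p = 4.41e-07).

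Spink1, the trypsin inhibitor of the pancreas that the male accessory glands also make, had strain means as far apart as several genes that differed, but its pools scattered more. Its first element gave 0.33, 0.57, 0.82 and -0.15 in C57BL/6J and -0.76, -0.03, -0.41 and -1.22 in BALB/c, the highest and the lowest strain. The 129X1/SvJ pools alone ran from -0.81 to 0.94, those of FVB/NJ from -0.91 to 0.03 and those of DBA/2 from -0.41 to 0.79. Every strain overlapped every other. The strain means were 0.99 apart, with an SD between pools of 0.57, and the F test gave an adjusted p of 0.361 (limma). The second element of Spink1, which carries the same annotated sequence, correlated with the first at 0.955 over the 20 arrays and gave a distance of 0.87 and an adjusted p of 0.426. Both elements read higher in Cy5 than in Cy3, by 0.80 and 0.77. With the dye as a term, the first element passed (adjusted p = 0.0364) and the second did not (0.103), and without pool 4 of 129X1/SvJ both did (0.0613 and 0.0148). Whether Spink1 passed thus changed with the dye term and with 1 pool. Spink2, a Kazal inhibitor of the testis and epididymis, had strain means within 0.11 of each other (adjusted p = 0.983).

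**Figure D2:**
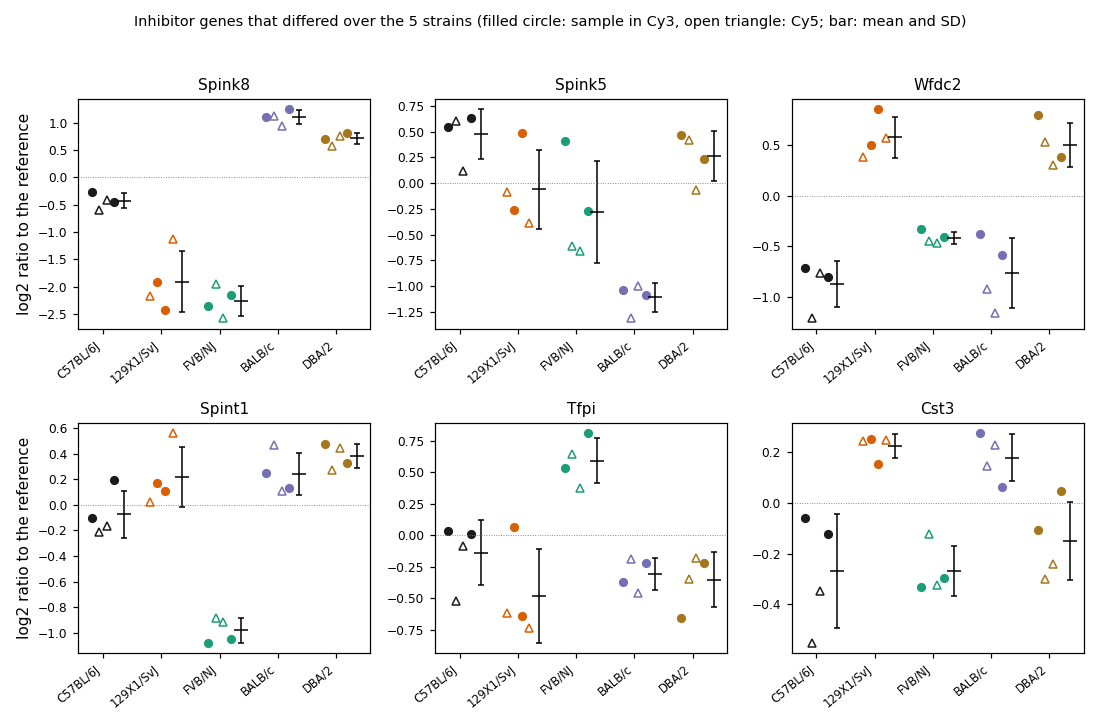
The panels plot the log2 ratio to the reference (vertical axis) of each of the 4 pools of the 5 strains (horizontal axis) for 6 inhibitor genes; filled circles are pools labelled with Cy3, open triangles pools labelled with Cy5, and bars the mean and SD of 4 pools. Spink8 is above 0.9 in all BALB/c pools and below -1.9 in all FVB/NJ pools, Spint1 is below -0.8 in FVB/NJ alone, and Tfpi is above 0.3 in FVB/NJ alone.

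Of the 3 Kunitz inhibitor genes, Spint1 and Tfpi differed, and FVB/NJ stood apart in both, in opposite directions. Spint1 codes for the membrane inhibitor HAI-1, which acts on the proteases matriptase, hepsin and the hepatocyte growth factor activator. The FVB/NJ pools gave log2 ratios of -1.08, -0.88, -0.91 and -1.05. The other strains gave -0.21 to 0.19 in C57BL/6J, 0.02 to 0.56 in 129X1/SvJ, 0.27 to 0.48 in DBA/2 and 0.11 to 0.47 in BALB/c. All 4 FVB/NJ pools were below the other 16. DBA/2 was 1.36 ± 0.10 above FVB/NJ, or 2.57-fold (limma, adjusted p = 1.26e-05; F test, adjusted p = 9.95e-07), and each of the other strains also differed from FVB/NJ, by 0.91 to 1.22. No pair without FVB/NJ passed the test for Spint1, the nearest being C57BL/6J, 0.45 ± 0.11 below DBA/2 (adjusted p = 0.0612).

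Tfpi codes for the tissue factor pathway inhibitor, which stops the start of coagulation at factor Xa and the complex of factor VIIa with tissue factor. Here the FVB/NJ pools were high, with log2 ratios of 0.54, 0.65, 0.38 and 0.81. C57BL/6J gave 0.03, -0.52, -0.08 and 0.01, and 129X1/SvJ -0.62, 0.07, -0.64 and -0.73. BALB/c ran from -0.46 to -0.19 and DBA/2 from -0.66 to -0.18. All 4 FVB/NJ pools stood above the other 16, among which the strains overlapped. FVB/NJ was 1.07 ± 0.20 above 129X1/SvJ, or 2.11-fold (limma, adjusted p = 0.0422; F test, adjusted p = 1.19e-03). It was 0.95 ± 0.13 above DBA/2, 0.90 ± 0.12 above BALB/c and 0.73 ± 0.15 above C57BL/6J (adjusted p = 1.86e-03, 1.48e-03 and 0.0215), and no pair without FVB/NJ passed. The third gene, Spint2, codes for HAI-2, a close relative of HAI-1. Its elements did not pass the F test (adjusted p = 0.326 and 0.446). On 1 of them FVB/NJ (-0.51, -0.36, -0.39 and -0.16) was 0.45 ± 0.10 below DBA/2 (0.02, 0.14, 0.15 and 0.05; limma, adjusted p = 0.0319).

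The whey acidic protein inhibitors are small secreted proteins with a domain first known from milk whey. Of the 3 genes measured, Wfdc2, which codes for the epididymal protein HE4, differed. It was high in 129X1/SvJ and DBA/2 and low in C57BL/6J, BALB/c and FVB/NJ. The 129X1/SvJ pools gave 0.38, 0.51, 0.86 and 0.57, and the DBA/2 pools 0.80, 0.53, 0.30 and 0.39. Those of C57BL/6J were -0.72, -1.21, -0.77 and -0.80, those of BALB/c -0.38, -0.92, -1.17 and -0.59, and those of FVB/NJ -0.33, -0.45, -0.46 and -0.41. The 8 pools of 129X1/SvJ and DBA/2 did not overlap with the other 12. Between 129X1/SvJ and C57BL/6J the difference was 1.46 ± 0.16, or 2.74-fold (limma, adjusted p = 2.40e-03; F test, adjusted p = 1.30e-06). All 6 pairs that join a high and a low strain passed the test, and none of the other 4 did. Wfdc18 and Slpi, the leukocyte protease inhibitor of secretions, did not pass (F test, adjusted p = 0.364 and 0.501). Slpi and Wfdc2 lie on chromosome 2 with 7 protein-coding genes between them (GRCm38.p6).

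The promoters of the 3 genes with the largest strain differences among the 6 of the 11 genes that the RefSeq promoter table holds are shown to give the reference sequence at the start of each gene. Each window holds 300 bases, 250 before the annotated start and 50 from it, in GRCm38.p6 and read 5′ to 3′ on the gene's strand. Capitals mark the GC box (GGGCGG), the TATA box (TATAAA) and the CCAAT box (CCAAT), searched on both strands. The androgen receptor half-site AGAACA was searched too and lay in none of these windows.
Spint1, chr2:119237110-119237409, plus strand: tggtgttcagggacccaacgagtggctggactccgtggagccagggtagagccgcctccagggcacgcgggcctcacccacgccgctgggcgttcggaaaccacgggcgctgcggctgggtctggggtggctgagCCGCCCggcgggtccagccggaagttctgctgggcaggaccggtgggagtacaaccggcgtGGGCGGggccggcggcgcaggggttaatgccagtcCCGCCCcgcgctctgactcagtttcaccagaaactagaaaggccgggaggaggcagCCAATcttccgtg
Wfdc2, chr2:164562465-164562764, plus strand: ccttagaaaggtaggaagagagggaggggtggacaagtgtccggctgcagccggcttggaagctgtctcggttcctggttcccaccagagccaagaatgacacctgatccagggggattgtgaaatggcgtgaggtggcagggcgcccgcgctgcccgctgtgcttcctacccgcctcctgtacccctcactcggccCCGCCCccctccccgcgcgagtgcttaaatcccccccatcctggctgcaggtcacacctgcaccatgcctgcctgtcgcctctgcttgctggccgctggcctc
Tfpi, chr2:84476710-84477009, minus strand: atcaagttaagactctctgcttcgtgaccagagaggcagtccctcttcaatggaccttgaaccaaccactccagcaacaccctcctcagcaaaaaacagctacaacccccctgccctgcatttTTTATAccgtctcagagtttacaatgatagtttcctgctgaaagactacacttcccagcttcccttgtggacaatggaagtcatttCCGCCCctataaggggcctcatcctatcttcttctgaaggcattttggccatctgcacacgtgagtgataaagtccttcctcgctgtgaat
The Spint1 window held 3 GC boxes, 1 CCAAT box and 28 CpG, the Wfdc2 window 1 GC box and 16 CpG, and the Tfpi window 1 TATA box, 1 GC box and 5 CpG. Tfpi has a second annotated start in the table, and the window there held 1 GC box, no TATA box and 3 CpG. Over all 32851 windows of the table a GC box was found in 35.7%, a TATA box in 13.6%, a CCAAT box in 37.4% and the half-site in 19.0%, and the median number of CpG was 7. The matches are of letters alone, without regard to position, and describe the reference sequence and not the sequence of the 5 strains. In Tfpi the TATA box match reads TTTATA, which is the match on the opposite strand. In Spint1 the CCAAT box match lies after the annotated start.

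Cst3, the only cystatin measured, codes for cystatin C, a secreted inhibitor of cysteine cathepsins. Its differences were small and regular. It was high in 129X1/SvJ (0.24, 0.25, 0.15 and 0.25) and BALB/c (0.27, 0.14, 0.23 and 0.06). It was low in C57BL/6J (-0.06, -0.55, -0.35 and -0.12), FVB/NJ (-0.33, -0.12, -0.33 and -0.30) and DBA/2 (-0.11, -0.30, -0.24 and 0.05). The 8 pools of 129X1/SvJ and BALB/c did not overlap with the other 12, of which 11 were below the reference. The strain means were at most 0.49 apart, or 1.41-fold (limma F test, adjusted p = 5.70e-03). BALB/c against FVB/NJ was the only pair to pass, 0.44 ± 0.10 apart (adjusted p = 0.0444). Within each dye alone the F test did not pass (adjusted p = 0.193 on the Cy3 arrays and 0.139 on the Cy5 arrays, 2 pools per strain).

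Of the 10 serpin genes measured, 2 differed, both of the clade of intracellular serpins. Serpinb6a, which inhibits trypsin-like proteases within the cell, was highest in FVB/NJ (0.28, 0.41, 0.11 and 0.09) and lowest in DBA/2 (-0.86, -0.29, -0.43 and -0.18). These 2 strains did not overlap and were 0.66 ± 0.15 apart, or 1.58-fold (limma, adjusted p = 0.0303; F test, adjusted p = 0.0196). The means of the other strains lay between them, at 0.12 in BALB/c, -0.02 in C57BL/6J and -0.25 in 129X1/SvJ. Serpinb1a, an inhibitor of the elastase and cathepsin G of neutrophils, was highest in BALB/c (0.05, 0.40, 0.70 and 0.49) and low in C57BL/6J (-0.57, -0.52, -0.45 and -0.15) and DBA/2 (-0.24, -0.39, -0.38 and -0.36). BALB/c was 0.83 ± 0.15 above C57BL/6J, or 1.78-fold, and 0.75 ± 0.13 above DBA/2 (limma, adjusted p = 0.013 and 9.42e-03; F test, adjusted p = 0.0335). The FVB/NJ pools were scattered, at -0.25, 0.61, -0.46 and 0.52. Within each dye alone neither serpin passed the F test (adjusted p = 0.261 to 0.420), and without the BALB/c arrays Serpinb1a did not (adjusted p = 0.221). Serpinb1a, Serpinb9 and Serpinb6a share a cluster on chromosome 13, with 2 protein-coding genes between the first 2 and 11 between the last 2. Serpinb9, a granzyme B inhibitor, did not pass the F test on either of its 2 elements (adjusted p = 0.737 and 0.999). These carry the same annotated sequence but hardly correlated with each other (0.0417 over 20 arrays), so the level of Serpinb9 remained uncertain.

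The remaining serpins did not pass the F test. Serpina1f, a member of the alpha-1-antitrypsin family, came nearest, with strain means from -0.45 in C57BL/6J to 0.39 in BALB/c (adjusted p = 0.157). Serpinh1, the collagen chaperone HSP47, had an adjusted p of 0.260, but in 1 pair FVB/NJ (0.47, 0.18, 0.09 and 0.04) was 0.56 ± 0.12 above DBA/2 (-0.53, -0.31, -0.36 and -0.26; limma, adjusted p = 0.0205). Serpinf1, which codes for the pigment epithelium-derived factor, had an adjusted p of 0.600 on the nearer of its 2 elements.

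Among the serine proteases Plau differed most. It codes for urokinase, which turns plasminogen into plasmin at the cell surface. On 1 element BALB/c gave log2 ratios of 1.34, 0.75, 0.46 and 0.48. C57BL/6J gave -0.75, -0.91, -0.44 and -1.12, and DBA/2 -0.60, -0.44, -0.52 and -0.65. The values of 129X1/SvJ ran from -0.79 to -0.01 and those of FVB/NJ from -0.35 to 0.09. All 4 BALB/c pools were above the other 16, and this held on the second element as well, which carries the same annotated sequence and correlated with the first at 0.935. BALB/c was 1.56 ± 0.20 above C57BL/6J on the first element, or 2.95-fold, and 1.34 ± 0.25 above it on the second (limma, adjusted p = 1.81e-03 and 0.0159; F test, adjusted p = 8.97e-05 and 2.60e-03). BALB/c was also above DBA/2 on both (adjusted p = 1.51e-03 and 0.038). On the first element FVB/NJ was 0.73 ± 0.16 above C57BL/6J and 0.48 ± 0.11 above DBA/2 (adjusted p = 0.0298 and 0.0437). On the second element the differences had the same direction, 0.61 ± 0.17 and 0.29 ± 0.15, and did not pass (0.102 and 0.364). Without the BALB/c arrays the first element still passed the F test (adjusted p = 0.0563) and the second did not (0.219). On the Cy5 arrays alone the second element did not pass either (adjusted p = 0.348).

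The receptor and the second activator of plasminogen were on the array too. Plaur, the urokinase receptor, did not pass the F test (adjusted p = 0.175 and 0.228 on its 2 elements). On the nearer element BALB/c (0.12, 0.10, 0.42 and 0.28) was 0.43 ± 0.10 above DBA/2 (-0.23, -0.14, -0.31 and -0.10), which passed as a pair (limma, adjusted p = 0.0483). Plat, the tissue plasminogen activator, had an adjusted p of 0.258 on its nearer element, with strain means from -0.35 in DBA/2 to 0.20 in FVB/NJ.

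The BALB/c pools were also those with the highest mean of the 7 seminal vesicle markers, as given above. By gene, Svs2, Svs4, Svs5 and Pate4 had their highest strain mean in BALB/c, and the other markers did not. Svs1 was highest in C57BL/6J (0.39, with 0.02 in BALB/c). Svs3b and Svs6 were highest in 129X1/SvJ (0.24 and -0.01, with -0.25 and -0.13 in BALB/c). Over the 20 arrays, which share the reference and fall into the 5 strains, Svs2 correlated at 0.71 with both elements of Plau, at -0.62 with Spink5, at -0.49 with Wfdc2, at -0.48 and -0.41 with the elements of Spink1, at 0.42 with Serpinb1a, at 0.40 with Serpinb6a and at 0.21 with Spink8. The part of the seminal vesicle signal in the BALB/c values of Plau, Spink5, Spink8 and Serpinb1a was not tested.

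Tmprss2, the membrane serine protease that androgens induce in the prostate, differed by less. On 1 element C57BL/6J gave 0.27, 0.29, 0.12 and 0.47, and FVB/NJ -0.48, -0.44, -0.31 and -0.22. DBA/2 was tightly grouped at -0.16, -0.14, -0.17 and -0.14, BALB/c ran from -0.18 to 0.10, and 129X1/SvJ from -0.36 to 0.39. The C57BL/6J pools did not overlap with those of FVB/NJ, BALB/c or DBA/2. C57BL/6J was 0.65 ± 0.11 above FVB/NJ, or 1.57-fold, and 0.44 ± 0.10 above DBA/2 (limma, adjusted p = 9.47e-03 and 0.0327; F test, adjusted p = 0.0189). The second element, with the same annotated sequence, did not pass (F test, adjusted p = 0.251). It correlated with the first at 0.576, its strain means ran from -0.28 in DBA/2 to 0.18 in 129X1/SvJ, and C57BL/6J stood 0.39 ± 0.15 above FVB/NJ on it (adjusted p = 0.223). Within each dye alone the first element did not pass (adjusted p = 0.363 and 0.188). Upk1b, the 1 of 4 markers of bladder and urethra that was measured, also had its highest mean in C57BL/6J (pools 0.32 to 1.12) and its lowest in FVB/NJ (pools -1.30 to -0.75), and its part in the values of Tmprss2 and of the other members low in FVB/NJ was not tested. Prss16, a serine protease of the thymus, missed the threshold narrowly (adjusted p = 0.106), with DBA/2 lowest at -0.23 and 129X1/SvJ highest at 0.22. Prss8, the membrane protease prostasin, had an adjusted p of 0.243. The 3 kallikreins measured, Klk5, Klk7 and Klk9, had strain means no more than 0.22 apart (adjusted p = 0.895 to 0.986); they are neighbours on chromosome 7, with 1 protein-coding gene between each pair in order.

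**Figure D3:**
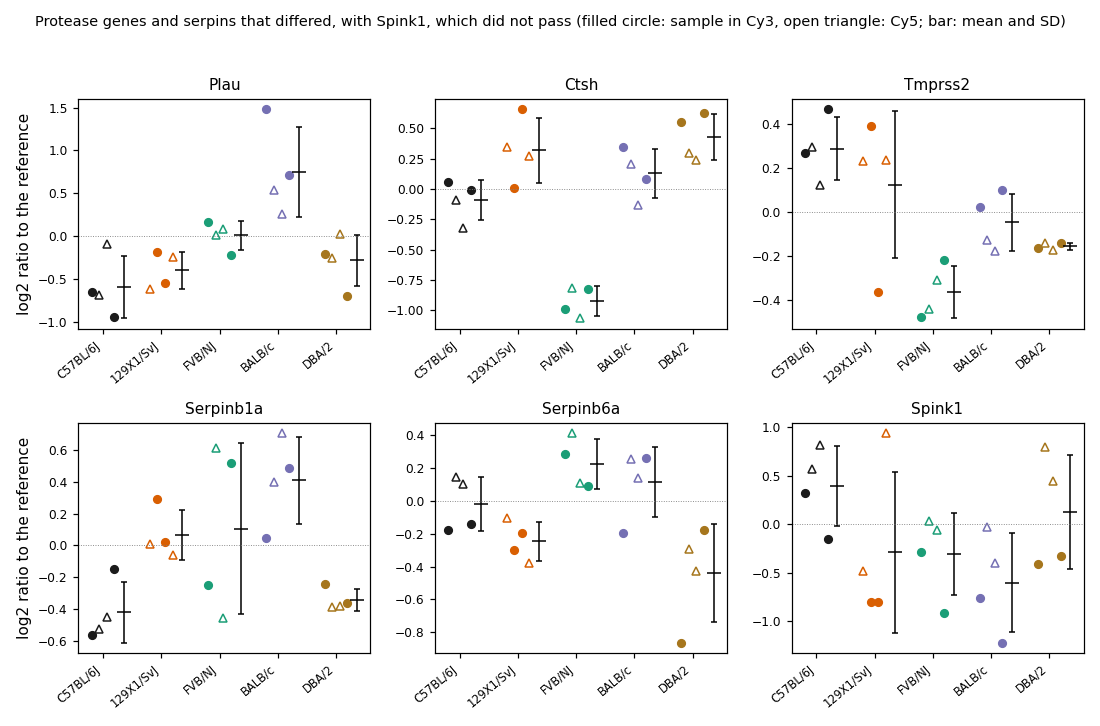
The panels plot the log2 ratio to the reference (vertical axis) of each of the 4 pools of the 5 strains (horizontal axis) for the genes that differed among the proteases (Plau, Ctsh, Tmprss2) and the serpins, and for Spink1, 1 element for each gene (8438 for Plau, 4125 for Ctsh); circles are Cy3 pools, triangles Cy5 pools, and bars the mean and SD of 4 pools. Plau is above 0.2 in every BALB/c pool, Ctsh is below -0.8 in every FVB/NJ pool and no other, and Spink1 spreads over more than 1.5 within 129X1/SvJ.

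The lysosomal proteases were the role with the most elements, 15, and held 10 genes, as many as the serpins. Of these lysosomal genes 1 differed. Ctsh, the cathepsin with aminopeptidase activity, was low in FVB/NJ. On 1 element the FVB/NJ pools gave -1.0, -1.02, -1.11 and -1.06, and on the other -0.99, -0.81, -1.07 and -0.83. The pools of the remaining strains ran from -0.28 to 0.61 on the first and from -0.32 to 0.66 on the second. All 4 FVB/NJ pools were below the other 16 on both elements, which correlated at 0.974 and carry the same annotated sequence. DBA/2, the highest strain, was 1.43 ± 0.11 above FVB/NJ, or 2.70-fold, on the first and 1.36 ± 0.12, or 2.56-fold, on the second (limma, adjusted p = 3.46e-05 and 5.94e-05; F test, adjusted p = 1.39e-06 and 6.70e-06). Each of the other strains differed from FVB/NJ on both elements, and no pair without FVB/NJ passed on either. Of 6 markers of mast cells 2 were measured, Cma1 and Mcpt4, and both passed the F test. Like Ctsh and Spint1, both had their lowest strain mean in FVB/NJ and their highest in DBA/2. The mean of the 2 markers lay at -0.59 to -0.22 in the FVB/NJ pools and 0.08 to 0.60 in the DBA/2 pools. In the pools of the other 3 strains it lay at -0.28 to 0.38. It was 0.03 in C57BL/6J and -0.09 in 129X1/SvJ, while Ctsh and Spint1 were lower in C57BL/6J than in 129X1/SvJ. The part of the mast cell markers in the values of Ctsh and Spint1 was not tested.

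The other 9 genes of the lysosomal group did not pass the F test (adjusted p = 0.215 to 0.994). Ctsl, the broad cysteine protease cathepsin L, came first at 0.215, with -0.29 in 129X1/SvJ and 0.20 in FVB/NJ. Ctsb (cathepsin B) and Ctsc, the dipeptidyl peptidase that activates serine proteases of granules, had adjusted p-values of 0.333 and 0.343. On 1 of the 2 elements of Ctsc, C57BL/6J (-0.52, -0.49, -0.30 and -0.51) was 0.53 ± 0.11 below BALB/c and 0.47 ± 0.10 below DBA/2 (limma, adjusted p = 0.0349 and 0.0274). The strain means of both elements of Ctsc were -0.46 in C57BL/6J. The 129X1/SvJ pools of that element ran from -0.80 to 0.71.

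In all, 14 genes had 2 elements on the array. The correlation between the 2 over the 20 arrays ran from 0.0417 for Serpinb9 to 0.974 for Ctsh, and of the 3 genes with 2 elements and a call (Ctsh, Plau, Tmprss2) the first 2 were called on both. Elements with the same annotated sequence may be repeated spots of the same clone and are not independent measurements.

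**Figure D4:**
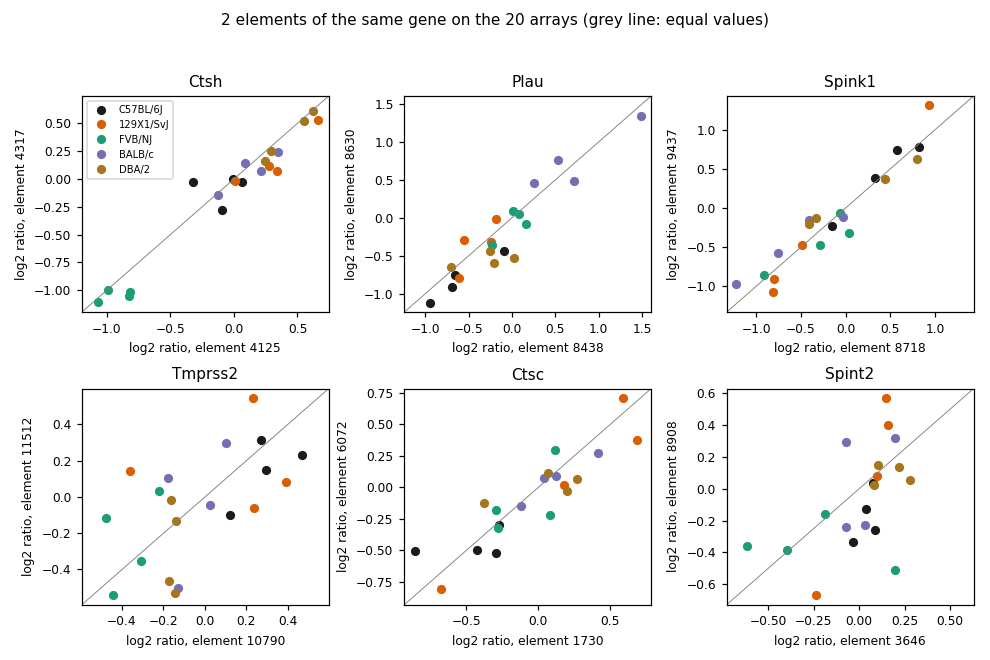
Each panel plots the log2 ratio of a gene's higher-numbered element (vertical axis) against that of its lower-numbered element (horizontal axis) on the 20 arrays. The strain of each pool is in colour, and a line marks equal values. For Ctsh and Plau the lower-numbered element (4125 and 8438) is the one called second in the text. The points follow the line for Ctsh, Plau and Spink1, with correlations of 0.974, 0.935 and 0.955, and scatter about it for Tmprss2 (0.576) and Spint2 (0.531).

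By pairs of strains, 17 elements of 15 genes differed in at least 1 of the 10 pairs (29.8%, beside 9.43% of all elements). FVB/NJ against DBA/2 had the most, 10 of the 57 elements (17.5%), with 6 higher in DBA/2, beside 3.73% of all elements. C57BL/6J against FVB/NJ and FVB/NJ against BALB/c had 7 each (12.3%, beside 3.13% and 2.41% of all elements). C57BL/6J against BALB/c and BALB/c against DBA/2 had 6 each (10.5%, beside 2.79% and 3.42%), and 129X1/SvJ against FVB/NJ 5 (8.77%, beside 0.78%). The pairs with the fewest were C57BL/6J against DBA/2 with 4 (7.02%, beside 2.99%) and 129X1/SvJ against BALB/c with 3 (5.26%, beside 0.887%). C57BL/6J against 129X1/SvJ had 2 (3.51%, beside 1.3%) and 129X1/SvJ against DBA/2 had 1, Spink8 (1.75%, beside 1.21%). Pairs that share a strain share its arrays. Leaving out 1 pool moved the count by over 1.5 times in C57BL/6J against 129X1/SvJ (4 without pool 4 of 129X1/SvJ, and 1 without any one of the other 7 pools) and in C57BL/6J against DBA/2 (2 without pool 1 of C57BL/6J or pool 2, 3 or 4 of DBA/2). The same held for 129X1/SvJ against FVB/NJ (3 without pool 4 of FVB/NJ), 129X1/SvJ against BALB/c (1 without pool 2 of BALB/c) and FVB/NJ against DBA/2 (6 without pool 1, 2 or 3 of DBA/2). Shares of all elements were not counted for these left-out pools. FVB/NJ was the lowest strain for 4 of the 11 genes that differed (Spink8, Spint1, Ctsh and Tmprss2) and the highest for 2 (Tfpi and Serpinb6a). C57BL/6J had the same counts, lowest for 4 (Cst3, Plau, Serpinb1a and Wfdc2) and highest for 2 (Spink5 and Tmprss2). BALB/c was the highest for 3 (Spink8, Plau and Serpinb1a). Such counts were not made over all elements.

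**Figure D5:**
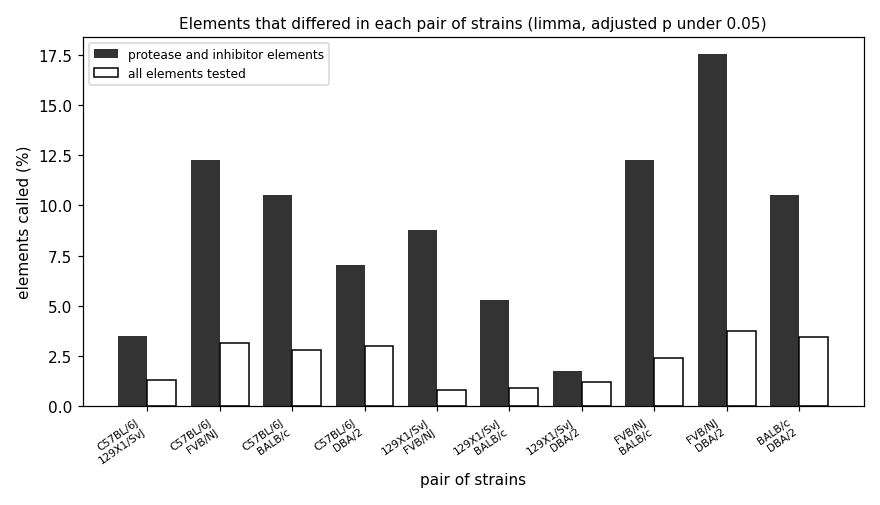
Bars give the percentage of elements called (limma, adjusted p under 0.05; vertical axis) in each of the 10 pairs of strains (horizontal axis), filled for the 57 protease and inhibitor elements and open for all 11159 elements tested. FVB/NJ against DBA/2 has the tallest filled bar, 10 of 57 elements, and 129X1/SvJ against DBA/2 the shortest, 1 of 57.

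A wider list of the protease network held 67 other genes: inhibitors and regulators, other secreted or membrane proteases, and lysosomal proteins. Of these 28 were measured and 5 differed over the strains, or 17.9%, beside 12.5% of all named genes. Under some alternatives the count was 3 or 1, given in the last section beside the shares of all elements. In the lysosome 2 of 10 did. Glb1, the lysosomal beta-galactosidase, gave 0.44, 0.53, 0.53 and 0.39 in BALB/c, -1.09, -0.96, -0.83 and -0.93 in DBA/2 and -0.65, -1.15, -0.74 and -0.64 in 129X1/SvJ (limma F test, adjusted p = 5.44e-08). The pools of DBA/2 and 129X1/SvJ were all below those of the other 3 strains. Scpep1, a serine carboxypeptidase, was high in C57BL/6J (1.52, 1.00, 0.36 and 1.13) and at or below 0.02 in the other 16 pools (adjusted p = 3.01e-05). Of the other secreted or membrane proteases 2 of 6 differed, the membrane protease hepsin (Hpn, strain means from -0.59 in C57BL/6J to 0.49 in 129X1/SvJ, adjusted p = 0.0263) and the dipeptidyl peptidase Dpp4 (from -0.30 in 129X1/SvJ to 0.22 in BALB/c, adjusted p = 0.0175). Of the inhibitors and regulators 1 of 12 did, the plasminogen-binding protein S100a10 (from -0.51 in C57BL/6J to 0.26 in 129X1/SvJ, adjusted p = 0.057). Hpn, Dpp4 and S100a10 passed in none of the 10 pairs of strains, Glb1 in 6 and Scpep1 in 4 (limma, adjusted p under 0.05).

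For 5 members the genes with the most similar values over the 20 arrays were looked up among 5621 named genes, as a description; the arrays share the reference and fall into the 5 strains. Spink8 was closest to Ces1e (0.908), Gpx8 (0.892) and Col6a3 (0.883). Tfpi was closest to Rnf225 (0.811), Clu (0.808) and Prepl (0.779). Cst3 was closest to Alkbh3 (0.904), Ift81 (0.842) and Tma7 (0.836), and Tmprss2 to Klhl5 (0.817), Lpcat2 (0.805) and Mt2 (0.799). The genes closest to Spink1 were Rpl39 (0.845), Wdr33 (0.835) and Dip2c (0.83), of which none differed over the strains (F test, adjusted p = 0.741 to 0.882).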

How the data were processed

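Per the labels and the methods, prostate RNA of 3 mice per pool was amplified, labelled by indirect coupling of Cy3 or Cy5 and hybridised with a common reference to custom mouse prostate cDNA arrays. The authors subtracted the median local background and normalised each array by print-tip loess, and the deposited values are log2 ratios, pool over reference. They also removed elements of low abundance, which needs intensities and was not done here. Signal over background was not used here, and the number of pools limits the precision.

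An element was tested if no more than 3 of its 20 values were missing and every strain had 2 or more (11159 of 11552). The array's annotation table named the genes and gave 1 symbol for 8050 elements, several for 672 and none for 2830; no gene was named from several. The 43 member genes all matched the RefSeq gene table of GRCm38.p6. Where a gene had several elements, the one with the fewest missing values, and then the lowest number, stood for the gene.

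Tests were run with limma 3.58.1 (R 4.3.3): a moderated F test on all 20 arrays for any difference among the 5 strains (threshold 0.1 for the adjusted p), and a moderated test on 8 arrays for each of the 10 strain pairs (threshold 0.05), with Benjamini-Hochberg adjustment over all elements. Errors after ± are standard errors of these fits (n = 4 pools per strain), and the pair tests of a strain share its arrays. The study used SAM, which was not run here. The scripts were tested on simulated data.

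The members, the roles, the marker lists and the wider list were chosen with earlier results of these data known. Named were every member past the F test, Spink8, Spink1, Tmprss2, Tfpi and Cst3 in any case, up to 3 members per role with the smallest adjusted p among the others, genes of the wider list past the F test, and the 3 genes most like each of those 5; members past a pair test alone, a few others at the ends of a range and neighbours of a member were added after their values were seen. Alternatives were another limit on missing values, other scalings, the dye or pool number as a term, elements averaged by gene, other estimates of the spread, array weights, each dye alone, and fits without 129X1/SvJ, without each pool and, added after the data were seen, without BALB/c. The markers of mast cells (2 of 2 measured passed), macrophages and leukocytes (1 of 3), basal epithelium (0 of 1), smooth muscle (0 of 5), fibroblasts (1 of 5), endothelium (0 of 4), skeletal muscle (2 of 5), adipose tissue (1 of 1), liver and plasma (0 of 1) and bladder and urethra (1 of 1) were also counted, and none of 4 for the pancreas was measured.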

Additional observations from a re-analysis of the deposited data

Results flagged for a closer look

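In each of the 16 elements with full values above, the 4 pools of each strain were checked for a pool that stood far from the other 3 (Dixon's ratio of gap to range above its critical value). Of 80 groups of 4 pools 4 had such a pool, and chance gives about 1 in 20. In Cst3 pool 3 of 129X1/SvJ was at 0.15 while the others were at 0.24 to 0.25 (ratio 0.923). In Tfpi pool 2 of 129X1/SvJ was at 0.07 and the others at -0.73 to -0.62 (0.854). In Ctsh, on 1 element, pool 2 of C57BL/6J was at -0.28 and the others at -0.03 to 0.00 (0.879). In Serpinb1a pool 1 of DBA/2 was at -0.24 and the others at -0.39 to -0.36 (0.845). Pool 2 of 129X1/SvJ had the highest seminal vesicle marker level of that strain, with Svs2 at -1.06 against -7.31 to -5.97 in the other 3. Over the 20 arrays Svs2 correlated with Tfpi at 0.16. The part of the seminal vesicle signal in the Tfpi value of this pool was not tested. Leaving out any of these pools left all 11 genes past the F test (limma).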

How the results depend on the processing

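The count of 13 elements over the 5 strains (beside 11.3% of all elements) rose to 24 with array weights (beside 17.3%). On the Cy5 arrays alone it fell to 8, beside 2.77% of all elements, and the causes were not tested. Leaving out 1 pool gave 13 to 21, the most without pool 4 of 129X1/SvJ, beside 9.21% to 15.7% of all elements. All 11 genes stayed past the F test under every alternative over all strains, including each left-out pool; Cst3, Serpinb1a, Serpinb6a and Tmprss2 did not pass on either dye alone (2 arrays per strain), and Spink5 and Serpinb1a did not without BALB/c. Spink1, which did not pass, did so on 1 or both elements with the dye term, with array weights, without 129X1/SvJ, on Cy3 alone and without pool 4 of 129X1/SvJ. No difference between highest and lowest strain turned sign. The 17 elements past a pair test became 11 without moderation of the spread, and 13 to 19 without 1 pool. For the pairs, shares of all elements were not counted under the alternatives. By pair, left-out pools gave 1 to 4 elements (C57BL/6J against 129X1/SvJ), 5 to 7 (FVB/NJ), 4 to 7 (BALB/c) and 2 to 4 (DBA/2). Against 129X1/SvJ they gave 3 to 5 (FVB/NJ), 1 to 3 (BALB/c) and 1 (DBA/2), and in the last 3 pairs 5 to 6 (FVB/NJ against BALB/c), 6 to 9 (FVB/NJ against DBA/2) and 4 to 6 (BALB/c against DBA/2). Without moderation C57BL/6J against BALB/c and against DBA/2 fell to 2 each, FVB/NJ against DBA/2 to 6, and 129X1/SvJ against BALB/c and against C57BL/6J to 1 each. Equal array spread gave 5 and 1 for these last 2 and quantile normalization 1 for the second. As contrasts of all arrays, 129X1/SvJ had 5 against BALB/c and 2 against DBA/2, and C57BL/6J had 2 against DBA/2. The dye term gave 8 for C57BL/6J against DBA/2 and 10 for BALB/c against DBA/2. The pool number as a block gave 10 for BALB/c against DBA/2, 1 each for 129X1/SvJ against BALB/c and C57BL/6J, and 0 for 129X1/SvJ against FVB/NJ. Over the 5 strains the block gave 13 genes, Prss16 and Serpina1f added, beside 12.9% of all elements. Same-numbered pools of different strains correlated at a median of 0.183 (other numbers -0.0324) and a lowest of -0.330, and 10 of 20 were most like their own number. Not every same-numbered pair correlated, and the numbers were not taken as pairs. Pools 1 and 4 were in Cy3 and pools 2 and 3 in Cy5, except in 129X1/SvJ, where the dyes were reversed. The correlations by number did not hold the dye apart, so they cannot tell a pairing from a shared dye. In pairs with 129X1/SvJ a block by pool number joined pools of opposite dyes. The 5 genes of the wider list became 3 by gene average (beside 11.9% of all elements), without 129X1/SvJ (13.2%) and on Cy3 alone (7.34%). They became 1 on Cy5 alone (2.77%), and 4 to 5 without 1 pool (9.21% to 15.7%).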
